A study of Mus musculus with 8 samples.

Results

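Circadian clock genes were followed in mouse mammary glands exposed to small extracellular vesicles (sEVs) of breast cancer cells. The genes were 10 of the 51789 genes in the deposited count table, chosen by name as core parts or outputs of the clock: Arntl (also named Bmal1), Npas2, Per1, Per2, Per3, Dbp, Tef, Nr1d1, Nr1d2 and Ciart. All 10 were found in the table and passed the filter on low counts. RNA sequencing was done on whole abdominal mammary glands of female C57BL/6 mice (an albino line of this strain is named among the study's animals) 6 weeks after a single injection of sEVs. The sEVNORM group (3 libraries) received vesicles released in normoxia and the sEVHYP group (2 libraries) vesicles released in hypoxia, both from AT3, a mouse line of metastatic mammary adenocarcinoma cells. The sEVCTRL group (3 libraries) received a preparation made in the same way from medium that had not been in contact with cells. The age of the mice, the day of each extraction and the hour at which each gland was collected are not given in the sources used here.

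The circadian clock is a loop of transcription and repression that runs in most cells with a period of about a day. ARNTL, paired with CLOCK or NPAS2, binds E-box sequences and drives the Per, Cry, Nr1d, Dbp, Tef and Ciart genes, whose products either repress that same pair (PER, CRY, CIART), repress Arntl and Npas2 through ROR elements (the REV-ERB receptors NR1D1 and NR1D2), or carry the rhythm to D-box sequences in other genes (DBP, TEF). In mouse peripheral tissues, the mammary gland included, transcripts of Arntl and Npas2 peak at a time of day well apart from those of Dbp, Tef, Per3, Nr1d1 and Nr1d2. The level of each gene in a single library depends on the hour of collection as well as on any treatment, and with no hour recorded the part of the hour in these values was not tested.

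The promoters show which of these sequence elements lie at the starts of the genes. Windows of 300 bases that span the annotated start were taken from RefSeq (GRCm38.p6) for 9 of the 10 genes, in 12 windows, since 3 genes have a pair of starts. Per2 was not matched. The windows of 5 genes are printed 5′ to 3′ on the strand of the gene, as the genes at the ends of the loop and the genes discussed most: Arntl at chr7:113207261-113207560 (plus strand), Ciart at chr3:95882179-95882478 (minus), Per3 at chr4:151044616-151044915 (minus), Nr1d1 at chr11:98775328-98775627 (minus) and Dbp at chr7:45704997-45705296 (plus). Capitals mark a match to a searched motif, on either strand.
Arntl: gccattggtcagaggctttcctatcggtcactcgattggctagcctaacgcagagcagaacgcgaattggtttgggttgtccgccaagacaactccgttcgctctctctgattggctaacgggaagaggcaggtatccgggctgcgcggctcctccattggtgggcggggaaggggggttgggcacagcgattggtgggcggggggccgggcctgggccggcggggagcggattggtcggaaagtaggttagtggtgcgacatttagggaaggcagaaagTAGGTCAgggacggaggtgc
Ciart: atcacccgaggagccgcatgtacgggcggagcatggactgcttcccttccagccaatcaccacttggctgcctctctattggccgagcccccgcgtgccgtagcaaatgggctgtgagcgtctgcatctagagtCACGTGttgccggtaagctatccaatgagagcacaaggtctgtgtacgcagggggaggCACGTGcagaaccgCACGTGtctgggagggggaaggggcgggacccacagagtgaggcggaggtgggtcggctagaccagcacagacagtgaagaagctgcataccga
Per3: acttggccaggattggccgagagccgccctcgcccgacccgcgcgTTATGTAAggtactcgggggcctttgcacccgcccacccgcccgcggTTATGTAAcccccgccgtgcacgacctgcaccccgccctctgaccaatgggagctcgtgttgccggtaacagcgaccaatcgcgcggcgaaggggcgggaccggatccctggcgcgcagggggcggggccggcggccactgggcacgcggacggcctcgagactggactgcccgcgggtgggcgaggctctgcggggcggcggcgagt
Nr1d1: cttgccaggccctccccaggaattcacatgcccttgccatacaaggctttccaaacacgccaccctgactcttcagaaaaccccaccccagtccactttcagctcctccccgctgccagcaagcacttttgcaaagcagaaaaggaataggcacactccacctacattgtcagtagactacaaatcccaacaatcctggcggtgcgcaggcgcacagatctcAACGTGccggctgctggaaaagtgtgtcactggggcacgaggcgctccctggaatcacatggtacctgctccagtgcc
Dbp: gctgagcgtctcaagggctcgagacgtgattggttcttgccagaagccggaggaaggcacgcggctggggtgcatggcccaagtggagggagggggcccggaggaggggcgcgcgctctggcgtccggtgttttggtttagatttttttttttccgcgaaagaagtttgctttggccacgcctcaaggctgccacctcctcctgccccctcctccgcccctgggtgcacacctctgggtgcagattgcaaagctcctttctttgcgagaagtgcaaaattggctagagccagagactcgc
The E-box CACGTG stood 3 times in the Ciart window, 116, 58 and 44 bases before the start, and once each in 1 window of Per1 and in both windows of Tef. It was present in 7.15% of all 32851 mouse promoter windows. An E-prime box, CACGTT, which shares 5 of its 6 letters with the E-box, stood 28 bases before the Nr1d1 start on the opposite strand (4.68% of all windows). Per3, whose product dimerizes with the other PER proteins, had 2 D-boxes (TTATGTAA or TTACGTAA searched), 205 and 158 bases before its start, a motif in 1.06% of all windows. A ROR element (TAGGTCA or TGGGTCA searched, 6.45% of all windows) stood 30 bases after the start in the second window of Arntl. No match overlapped a match of another motif. The cAMP response element TGACGTCA stood in none of the 12 windows and in 1.79% of all windows. No searched motif was found in the windows of Dbp, Npas2 and Nr1d2, which says only that these letters are not in these 300 bases.

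Total counts were 18194996 to 24622569 per library, and levels are given as CPM, the count scaled to a library total that TMM had normalized. The tissue labels were checked against marker lists: luminal epithelium markers summed to 829 to 1842 CPM and white adipocyte markers to 5212 to 10324 CPM over the 8 libraries, with none of their genes at 0. Prlr held much of the luminal sum, with a mean of 756 CPM in sEVCTRL beside 68.5 CPM for Krt8. B cell markers summed to 684 to 2332 CPM over the 8 libraries. Skeletal muscle, a tissue next to the gland, varied most: its 14 markers summed to 787 to 10643 CPM in sEVCTRL, 30.4 to 3592 CPM in sEVNORM and 5560 to 15282 CPM in sEVHYP, and 1 of the 14 was at 0 in 1 sEVNORM library. The part of muscle in the values below was not tested apart from the fit with muscle as a covariate, and in whole glands fewer cells of a type and less RNA per cell cannot be told apart. Per kilobase of exon, the median CPM of the 8 libraries was highest for the REV-ERB genes, 22.1 for Nr1d1 and 16.6 for Nr1d2. Dbp (6.22), Tef (4.62), Per2 (4.15) and Arntl (3.48) followed, then Per1 (2.73) and Per3 (2.48), with Npas2 (1.42) and Ciart (0.533) lowest. The per-kilobase ranges over the libraries did not overlap between Nr1d1 (12.6 to 34.4) and Dbp (2.72 to 8.74), whereas those of neighbours in this order, such as Per2 (2.51 to 5.19) and Arntl (2.87 to 4.05), did.

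Whether sEVs of either kind moved the clock genes was tested by comparing the 3 groups in pairs. No clock gene passed an unadjusted P of 0.05 in edgeR's quasi-likelihood test, neither for sEVHYP against sEVCTRL (0 of 10, where 2.45% of 17858 genes tested passed), nor for sEVHYP against sEVNORM (0 of 10, where 3.95% passed), nor for sEVNORM against sEVCTRL (0 of 10, where 1.62% passed). All 30 adjusted P values (Benjamini-Hochberg over all genes tested, edgeR) rounded to 1.00, and 0 of the 17858 genes passed an adjusted P of 0.05 in any of the comparisons. The median log2 fold change of the 10 genes was -0.24, -0.15 and -0.09 in the same order, beside -0.02, -0.02 and -0.00 over all genes tested. With shares of 1.62% to 3.95% of all genes, a count of 0 of 10 does not tell the clock genes from other genes. A pattern that crossed the groups was also seen in these values and was not tested. Replicate 1 of sEVNORM and replicate 1 of sEVHYP had the highest Arntl and Npas2 of the 8 libraries and the lowest Dbp and Per3.

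**Figure D1:**
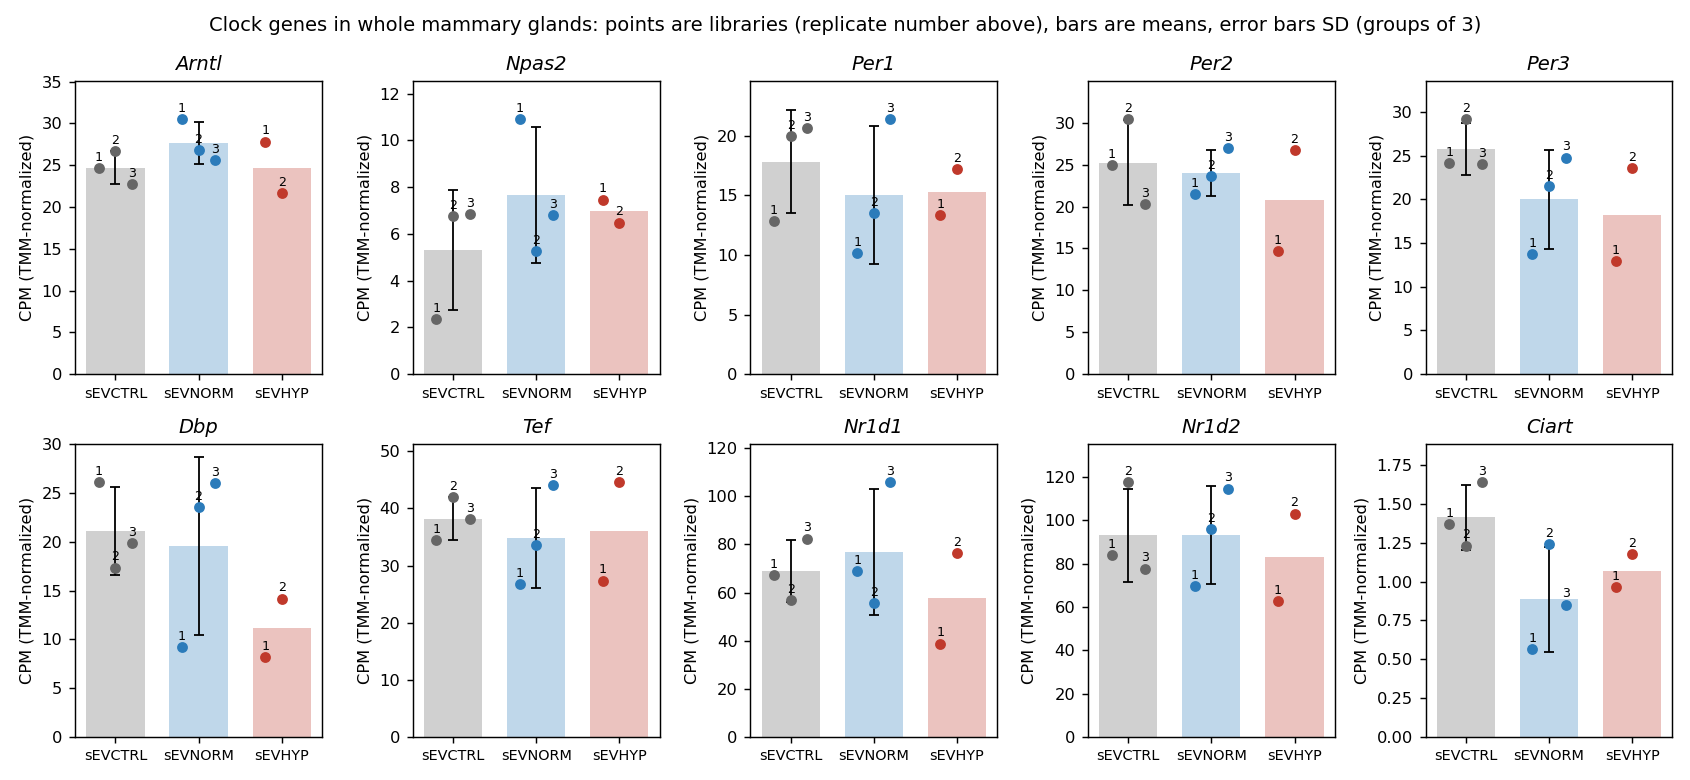
CPM (y axis, TMM-normalized) of each of the 10 clock genes in every library, by group (x axis). Points are libraries with their replicate number, bars are group means from 0, and error bars are the SD in the groups of 3. For Dbp, replicate 1 of sEVNORM (9.17 CPM) and replicate 1 of sEVHYP (8.15 CPM) sit below the other 6 libraries, which start at 14.2 CPM.

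Arntl encodes the activator without which the loop does not run. Its level was 24.6, 26.7 and 22.8 CPM in sEVCTRL replicates 1 to 3, 30.5, 26.8 and 25.6 CPM in sEVNORM replicates 1 to 3, and 27.8 and 21.6 CPM in sEVHYP replicates 1 and 2. The groups overlapped, and the highest and lowest libraries differed by only 1.41-fold. The log2 fold change was 0.00 (SE 0.18, 95% CI -0.40 to 0.41) for sEVHYP against sEVCTRL and 0.16 (SE 0.16, CI -0.20 to 0.52) for sEVNORM against sEVCTRL. Leaving out replicate 1 of sEVHYP gave -0.19 and leaving out replicate 2 gave 0.16 for the first of these, so its sign was set by which sEVHYP library was kept.

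Npas2, the partner of ARNTL that can stand in for CLOCK, was at 2.34, 6.75 and 6.84 CPM in sEVCTRL, 10.9, 5.28 and 6.81 CPM in sEVNORM and 7.47 and 6.48 CPM in sEVHYP, in the order of replicates. Replicate 1 of sEVCTRL was lowest and replicate 1 of sEVNORM highest, a range of 4.67-fold on 46 to 271 counts, and the groups overlapped. The log2 fold changes were 0.39 (SE 0.47, sEVHYP against sEVCTRL), -0.14 (SE 0.47, sEVHYP against sEVNORM) and 0.53 (SE 0.42, sEVNORM against sEVCTRL). With muscle marker level as a covariate, Npas2 in sEVNORM was 0.83 above sEVCTRL on the log2 scale, with an unadjusted edgeR P of 0.0480. In that fit 2.45% of all genes passed.

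The Per genes encode the PERIOD repressors. Per1, the one most directly induced by signals such as glucocorticoids, was at 12.8, 20.0 and 20.6 CPM in sEVCTRL, 10.1, 13.5 and 21.4 CPM in sEVNORM and 13.3 and 17.2 CPM in sEVHYP. Per2 was at 25, 30.4 and 20.3 CPM in sEVCTRL, 21.5, 23.6 and 27.0 CPM in sEVNORM and 14.7 and 26.8 CPM in sEVHYP. Neither separated the groups, and replicate 1 of sEVHYP held the lowest Per2 of all libraries while replicate 2 of the same group was near the top. Per1 differed by -0.22 (SE 0.33) and Per2 by -0.29 (SE 0.27) on the log2 scale between sEVHYP and sEVCTRL.

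Per3, which in many tissues swings with a large amplitude, was at 24.1, 29.2 and 24.0 CPM in sEVCTRL, 13.7, 21.5 and 24.8 CPM in sEVNORM and 12.9 and 23.6 CPM in sEVHYP. Both sEVHYP libraries were below all 3 sEVCTRL libraries, but replicate 2 of sEVHYP was below the nearest of them by a small step only (23.6 against 24.0 CPM). Replicate 1 of sEVNORM (13.7 CPM) sat beside replicate 1 of sEVHYP (12.9 CPM). The log2 fold change of Per3 was -0.50 (SE 0.31, CI -1.20 to 0.20, unadjusted P 0.143 in edgeR) for sEVHYP against sEVCTRL, -0.13 (SE 0.31) for sEVHYP against sEVNORM and -0.37 (SE 0.28) for sEVNORM against sEVCTRL.

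Dbp, a bZIP transcription factor and one of the most strongly rhythmic outputs of the clock, gave the largest difference of the 10 genes in both sEVHYP comparisons. It was at 26.2, 17.4 and 19.9 CPM in sEVCTRL, 9.17, 23.6 and 26.1 CPM in sEVNORM and 8.15 and 14.2 CPM in sEVHYP. The mean was 21.1 ± 4.53 CPM (SD, n = 3) in sEVCTRL, 19.6 ± 9.12 CPM (SD, n = 3) in sEVNORM and 11.2 ± 4.26 CPM (SD, n = 2) in sEVHYP. Both sEVHYP libraries lay below all sEVCTRL libraries, while replicate 1 of sEVNORM lay between the 2 sEVHYP libraries. The log2 fold change was -0.92 (SE 0.43, CI -1.89 to 0.04, unadjusted P 0.0643 in edgeR) for sEVHYP against sEVCTRL, -0.81 (SE 0.43, CI -1.78 to 0.15, unadjusted P 0.0950 in edgeR) for sEVHYP against sEVNORM and -0.11 (SE 0.38) for sEVNORM against sEVCTRL.

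The call for Dbp depended on the test. DESeq2 gave a difference of the same size (-0.93 on the 2 groups alone and -0.92 on all 8 libraries) for sEVHYP against sEVCTRL, with an unadjusted P of 0.00875 on the 2 groups, where 1.5% of genes passed, and of 0.0289 on all 8 libraries, where 1.85% passed, and adjusted P values of 1.00 in both. Dbp was the 1 clock gene of 10 that DESeq2 called there, and it called 0 for sEVHYP against sEVNORM (4.54% of genes on the 2 groups and 3.12% on all 8 libraries passed) and 0 for sEVNORM against sEVCTRL (1.14% and 1.28%). In edgeR the unadjusted P was 0.0209 on the 2 groups alone, where 1.74% of genes passed, and 0.0207 with no filter on low counts, where 2.47% passed. Removing replicate 1 of sEVHYP left a log2 difference in Dbp of -0.57 from sEVCTRL, and removing replicate 2 gave -1.38. Against sEVNORM the Dbp difference was -1.15 (unadjusted P 0.00628 in edgeR, where 3.26% of genes passed) without replicate 1 of sEVNORM and -0.46 without replicate 1 of sEVHYP. With both replicate 1 libraries removed, Dbp in the 1 sEVHYP library left differed from sEVNORM by a log2 fold change of -0.81. That alternative was added after seeing that Dbp was low in the libraries it removes, so its value is a description and supports nothing.

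Tef, which encodes a second factor of the same family as DBP, followed Dbp in its 2 lowest libraries at a smaller range. It was at 34.5, 42.0 and 38.2 CPM in sEVCTRL, 26.7, 33.6 and 44.0 CPM in sEVNORM and 27.3 and 44.6 CPM in sEVHYP. The lowest library was replicate 1 of sEVNORM, the next was replicate 1 of sEVHYP, and the highest was replicate 2 of sEVHYP, so the groups overlapped. The log2 fold changes were -0.09 (SE 0.26), 0.05 (SE 0.26) and -0.14 (SE 0.23) for sEVHYP against sEVCTRL, sEVHYP against sEVNORM and sEVNORM against sEVCTRL.

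The REV-ERB receptors repress Arntl and Npas2. Nr1d1 was at 67.1, 56.9 and 82.4 CPM in sEVCTRL, 68.7, 55.5 and 106.0 CPM in sEVNORM and 38.8 and 76.3 CPM in sEVHYP. Nr1d2 was at 84.1, 117.8 and 77.8 CPM in sEVCTRL, 69.7, 95.9 and 114.7 CPM in sEVNORM and 62.8 and 103.2 CPM in sEVHYP. Replicate 1 of sEVHYP was the lowest library for both receptors, and replicate 1 of sEVNORM was second lowest for Nr1d2 but in the middle for Nr1d1. The log2 fold change of Nr1d1 was -0.26 (SE 0.34) for sEVHYP against sEVCTRL and -0.42 (SE 0.34) for sEVHYP against sEVNORM. For Nr1d2 the values were -0.17 (SE 0.29) in both of these comparisons. Without replicate 1 of sEVHYP, Nr1d1 and Nr1d2 in sEVHYP were above sEVCTRL, both by 0.15 on the log2 scale.

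Ciart, a repressor of the ARNTL pair, was the least abundant of the genes, on 14 to 30 counts per library. It was at 1.37, 1.23 and 1.64 CPM in sEVCTRL, 0.563, 1.24 and 0.851 CPM in sEVNORM and 0.962 and 1.18 CPM in sEVHYP. Both sEVHYP libraries and 2 of the 3 sEVNORM libraries were below every sEVCTRL library. Counting error alone gave a coefficient of variation (CV) of 20.7% at this depth, beside 29.4% between the libraries. The log2 fold change was -0.40 (SE 0.46) for sEVHYP against sEVCTRL and -0.67 (SE 0.41, unadjusted P 0.136 in edgeR) for sEVNORM against sEVCTRL.

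Counted over the 10 genes, sEVHYP and sEVCTRL did not overlap for 3, Per3, Dbp and Ciart, all lower in sEVHYP, where 12.8% of all genes tested did not overlap and 6.08% were lower without overlap. No clock gene was without overlap between sEVHYP and sEVNORM (22.8% of all genes tested) or between sEVNORM and sEVCTRL (4.86%). The first count was 9 without replicate 2 of sEVHYP, where 33.6% of all genes tested did not overlap, and 5 without replicate 1, where 41.5% did not. With 1 library set against 3, many more genes are without overlap whatever the gene. In the fit without replicate 2, where 1 library stands for sEVHYP and is assumed to vary like the others, Per2 (log2 fold change -0.79), Per3 (-1.01) and Dbp (-1.38) passed an unadjusted P of 0.05 in edgeR against sEVCTRL, and Per2 (-0.71) and Nr1d1 (-0.996) against sEVNORM. In that fit 2.17% and 2.21% of all genes tested passed in the 2 comparisons. Without replicate 1 of sEVHYP no clock gene passed, where 2.43% and 4.42% of genes did.

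**Figure D2:**
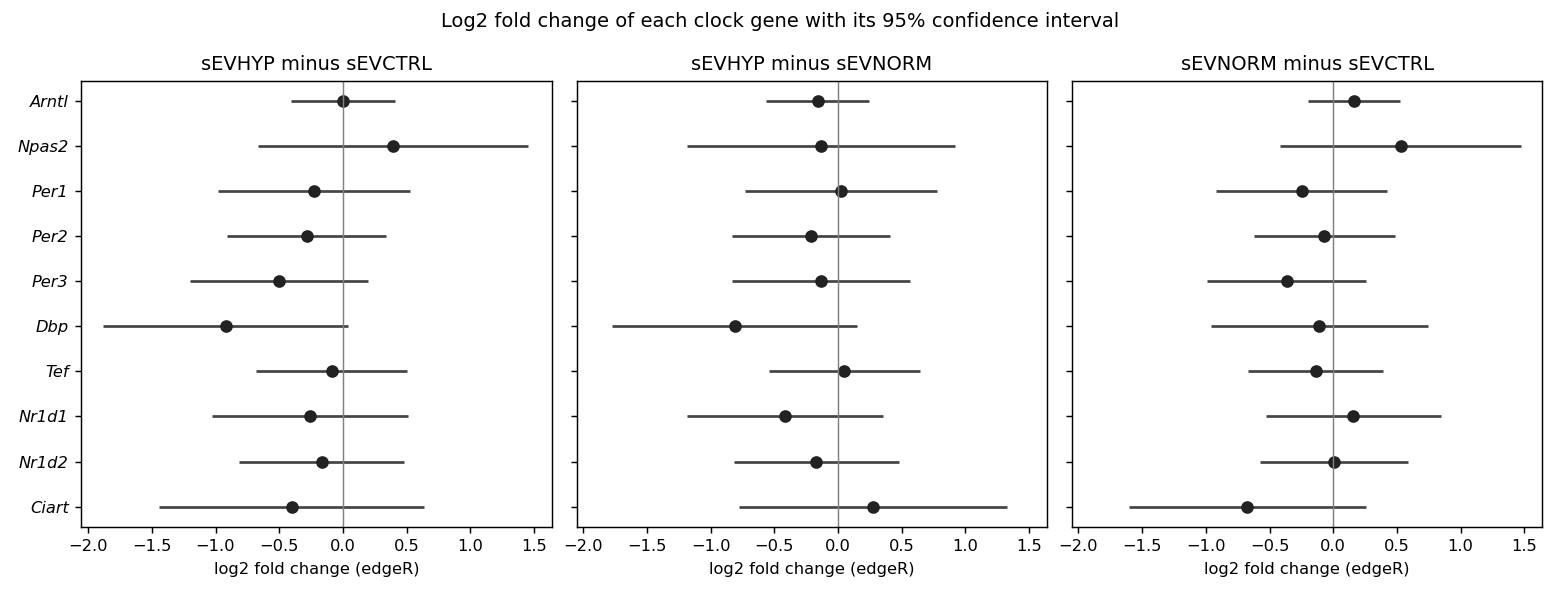
Log2 fold change (x axis, edgeR) of each clock gene (y axis) in the 3 comparisons, one panel each. Points are fitted values and lines their 95% confidence intervals, all of which cross 0. Dbp lies farthest from 0 in both sEVHYP comparisons, at -0.92 and -0.81.

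The order of the libraries was read for each gene. Among the 8 genes other than Arntl and Npas2 (Per1, Per2, Per3, Dbp, Tef, Nr1d1, Nr1d2 and Ciart), replicate 1 of sEVHYP was the lowest library for 5 and below the median for 8 of 8. Replicate 1 of sEVNORM was the lowest for 3 and below the median for 7 of 8. Each was among the 2 lowest libraries for 6 of the 8 genes, a place that no other library took for more than 1 gene. Replicate 3 of sEVNORM stood at the other end, among the 2 highest libraries for 7 of the 8 genes. For Arntl and Npas2, replicate 1 of sEVNORM was the highest library and replicate 1 of sEVHYP the second highest.

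A clock index, the mean log2 CPM of those 8 genes minus that of Arntl and Npas2, put this on 1 scale, as a description with no test. The 8 genes do not all peak at the same hour. It was 1.52, 0.84 and 0.89 in sEVCTRL replicates 1 to 3, -0.30, 0.81 and 0.95 in sEVNORM and -0.05 and 0.93 in sEVHYP. The 2 libraries below 0 came from different groups, and the other 6 were at 0.81 or above. Group means were 1.08 ± 0.38 (SD, n = 3) for sEVCTRL, 0.49 ± 0.69 (SD, n = 3) for sEVNORM and 0.44 ± 0.69 (SD, n = 2) for sEVHYP, so the difference between the groups was of the size of the spread within sEVNORM and sEVHYP. The high value of replicate 1 of sEVCTRL rested on its low Npas2 (2.34 CPM). Averaged in log2 CPM, the muscle markers stood at 7.47 in replicate 1 of sEVNORM and at 8.04 in replicate 1 of sEVHYP. The other libraries ran from -0.40 in replicate 2 of sEVNORM to 9.06 in replicate 2 of sEVCTRL. Whether muscle or any other tissue had a part in the clock index was not tested.

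**Figure D3:**
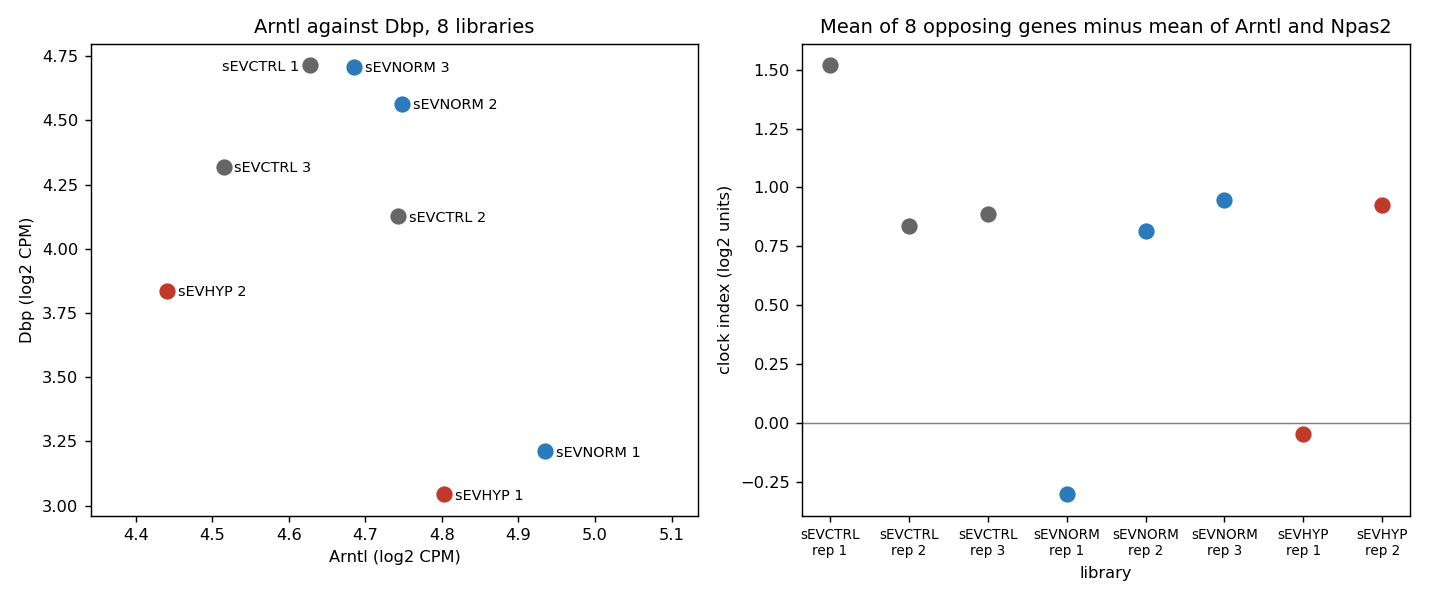
Left, Dbp against Arntl in log2 CPM, one point per library, coloured by group. Right, clock index in log2 units (y axis) by library (x axis), where replicate 1 of sEVNORM (-0.30) and replicate 1 of sEVHYP (-0.05) are the only points below 0.

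Arntl and Dbp, the activator and an output of opposite phase, were the single pair of genes tested for a relation across libraries. Pearson's r was -0.45 (exact permutation test, two-sided, P 0.270, n = 8) and Spearman's rho -0.43 (exact permutation P 0.299), so no relation was detected. Without the 2 libraries farthest from the median of Arntl, r was -0.51 (exact permutation P 0.299, n = 6). After group means were subtracted, r was -0.78 (exact permutation within groups, P 0.0694, n = 8) and rho -0.71 (exact permutation P 0.0972). Without replicate 1 of sEVNORM the r of Arntl and Dbp was -0.17, and without replicate 2 of sEVHYP it was -0.69.

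The spread of the clock genes between libraries was set against that of other genes. Dbp had a CV of 39.5%, and its SD of log2 CPM was at percentile 96.6 of the 1001 genes nearest to it in level. Nr1d1 was at percentile 91.7 (CV 29.2%), Per3 at 88.1 (25.9%) and Npas2 at 87.7 (35.9%). Per1 (81.8), Nr1d2 (81.4), Per2 (75.2) and Tef (71.5) followed, and Ciart was at percentile 25.9. Arntl was the least variable of the clock genes, at percentile 22.2 with a CV of 10.9%, beside a median CV of 22.0% over all genes tested. Counting error contributed a CV of 5.15% to Dbp and 4.26% to Arntl.

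A further 21 genes of the clock, its kinases, ubiquitin ligases and outputs were read from a list written with the 10 genes. None passed an unadjusted P of 0.05 in edgeR in any comparison, and the smallest unadjusted P values were 0.211, 0.0903 and 0.0921 for sEVHYP against sEVCTRL, sEVHYP against sEVNORM and sEVNORM against sEVCTRL. In edgeR 2.45%, 3.95% and 1.62% of all genes tested passed in these comparisons. On the 2 groups alone DESeq2 called 0, 2 and 0 of the 21, where 1.5%, 4.54% and 1.14% of all genes passed. Their median log2 fold changes were 0.02, 0.06 and -0.06. Leaving out replicate 2 of sEVCTRL brought the edgeR count to 3 for sEVHYP against sEVCTRL, where the share of all genes tested that passed was then 8.32%, and to 2 for sEVHYP against sEVNORM, where it was 5.57%.

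Clock, the usual partner of ARNTL, ran from 77.2 to 125 CPM with a log2 fold change of 0.26 (SE 0.21) for sEVHYP against sEVCTRL. The cryptochromes, which repress with the PER proteins, differed by -0.14 (SE 0.28, Cry1) and -0.23 (SE 0.22, Cry2) in the same comparison. Bhlhe40 and Bhlhe41, repressors that compete for E-boxes, differed by -0.01 (SE 0.16) and 0.25 (SE 0.30). Rora, an activator at the elements that the REV-ERB receptors repress, differed by 0.06 (SE 0.33). Hlf, the third factor of the DBP and TEF family, was lowest in replicate 1 of sEVHYP (12.6 CPM) and at 36.3 CPM in replicate 2, with a log2 fold change of -0.08 (SE 0.46). Nfil3, which represses at D-boxes, was at 9.07 and 10.1 CPM in sEVHYP, above the 6.60, 7.75 and 7.77 CPM of sEVCTRL, with a log2 fold change of 0.37 (SE 0.28, unadjusted P 0.211 in edgeR).

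**Figure D4:**
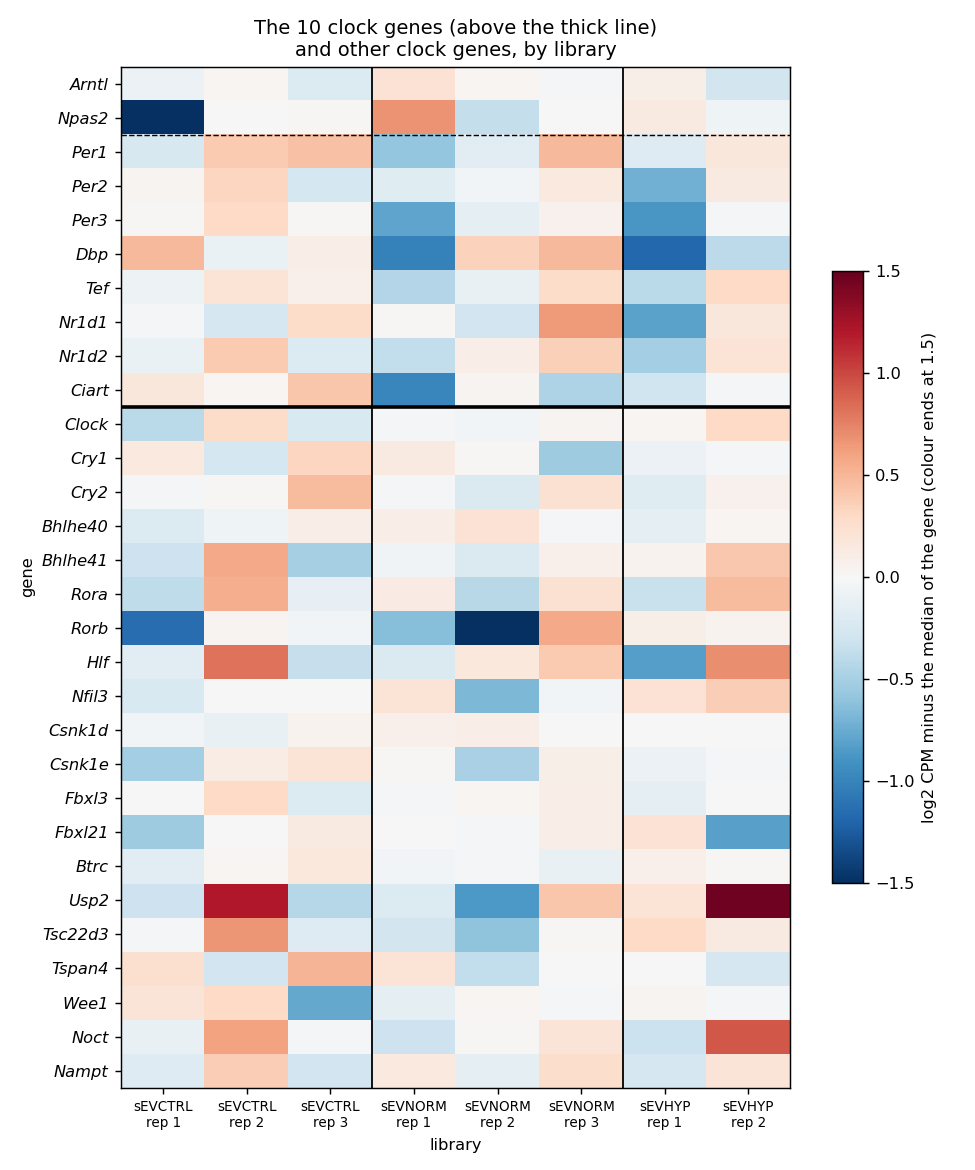
Log2 CPM minus the median of the gene (colour, ends at 1.5) for the 10 clock genes and other clock genes (rows) in the 8 libraries (columns, grouped by treatment). The mostly blue columns above the thick line are replicate 1 of sEVNORM and replicate 1 of sEVHYP, with Dbp 1.01 and 1.18 below its median in log2 units (-1.01 and -1.18). Arntl and Npas2, above the dashed line, are 0.22 and 0.68 above their medians in replicate 1 of sEVNORM. In replicate 1 of sEVHYP they are only 0.09 and 0.14 above, a faint colour. Nr1d1 is at 0.02 in replicate 1 of sEVNORM.

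Overlapping genes limit 4 of these readings, since the strand setting of the counting is not given in the sources used here. Exons of Dbp share 539 bases with Sphk2 on the opposite strand (GENCODE release M21, GRCm38), those of Nr1d1 share 263 with Thra, those of Tef 193 with Gm17597 and those of Arntl 33 with Gm45355. How many reads of these stretches were given to each gene was not tested.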

How the data were processed

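RNA of 8 mammary glands was sequenced from poly(A) libraries (Sense mRNA-Seq kit V2 of Lexogen), and groups came from the sample labels. The authors mapped reads to mm10 with STAR, then used RSEM 1.2.12 with Ensembl release 89 gene models. The deposited values are whole-number counts with no normalization, and how the estimates were made whole is not given in the sources used here. Symbols were found for 51596 of 51789 genes (GENCODE release M21), and the remaining genes held 0.0389% of counts. No 2 libraries were duplicates (chi-square of at least 33.7 per gene).

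The main test was the two-sided quasi-likelihood F-test of edgeR 4.0.16 (R 4.3.3), fitted to all 3 groups at once on genes kept by filterByExpr (minimum count 10). TMM factors lay between 0.975 and 1.02, and residual and prior degrees of freedom were 5 and 4.08. SE and 95% CI came from the fitted information and the moderated dispersion. Log2 CPM had a prior count of 2. The study's unadjusted threshold of 0.05 was kept, and Benjamini-Hochberg adjustment covered the 17858 genes tested. DESeq2 1.42.0 was an alternative. Exact permutation tests and figures were made in Python 3.11.15 with matplotlib 3.10.9. The fits were tested on simulated counts.

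The clock genes, the lists and the rule for named genes were chosen with earlier results of these data known. Named genes are the 10 clock genes, 9 other clock genes fixed by name (of which 1 is not reported here), every gene of the other clock, temperature, glucocorticoid and immediate early lists past an unadjusted P of 0.05, and the 3 genes with the highest and the 3 with the lowest correlation with the clock index. Genes named for an exon overlap fall outside this rule. So do Prlr, Krt8, Rbm3, Sgk1 and Cdkn1a, which were named after their values were seen. The labels give group and number only, so P values measure the spread between these glands. Whether glands of the same replicate number were paired is not given in the labels and was not settled here.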

Additional observations from a re-analysis of the deposited data

How the results depend on the processing

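The count of 0 clock genes at an unadjusted P of 0.05 in edgeR changed with the test for Dbp and Npas2 only, outside the leave-one-out fits. For sEVHYP against sEVCTRL it was 1 under DESeq2 on all 8 libraries, DESeq2 on the 2 groups, edgeR on the 2 groups and no filter on low counts (Dbp each time). For sEVHYP against sEVNORM it was 1 with no filter (Dbp), where 4.04% of all genes passed. The fit without both replicate 1 libraries of sEVNORM and sEVHYP is not counted here. Those libraries were chosen after Dbp was seen to be low in them, and the fit leaves 1 sEVHYP library. For sEVNORM against sEVCTRL it was 1 with the skeletal muscle covariate (Npas2), where 2.45% of all genes passed. Leaving out 1 library gave 0 to 3, 0 to 2 and 0 to 0 clock genes in the 3 comparisons, where 1.92% to 8.32%, 2.21% to 5.57% and 1.26% to 5.75% of all genes passed, the highest counts coming without replicate 2 of sEVHYP (2.17% and 2.21% of all genes). Dbp also passed without replicate 1 of sEVNORM in both sEVHYP comparisons. Clock genes without overlap numbered 3 to 9, 0 to 5 and 0 to 3, where 12.8% to 41.5%, 22.8% to 59.1% and 4.86% to 22.8% of all genes did not overlap. The highest counts came without replicate 2 of sEVHYP (33.6% and 45.2% of all genes) and, in the third comparison, without replicate 3 of sEVNORM (11.8%), and with DESeq2 size factors 1 clock gene did not overlap for sEVNORM against sEVCTRL (4.93% of all genes). Of the 21 other clock genes, 0 to 3, 0 to 2 and 0 to 1 passed with 1 library left out, in the same fits and beside the same shares of all genes. For sEVHYP against sEVNORM, 1 passed under DESeq2 on all 8 libraries (3.12% of all genes), edgeR on the 2 groups (6.07%) and no filter (4.04%). Under DESeq2 on the 2 groups 2 passed (4.54% of all genes). In each case the cause was not tested.

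Directions near 0 turned. The log2 fold change of Arntl for sEVHYP against sEVCTRL was -0.0068 with DESeq2 size factors, -0.0051 under DESeq2 on all 8 libraries, -0.0086 under DESeq2 on the 2 groups and -0.019 with the muscle covariate. That of Nr1d2 for sEVNORM against sEVCTRL was -0.0067 with DESeq2 size factors, -0.0062 under DESeq2 on all 8 libraries, -0.010 under DESeq2 on the 2 groups and -0.0069 under edgeR on the 2 groups. With the muscle covariate, Per1 (-0.15) and Tef (-0.042) were lower in sEVHYP than in sEVNORM. With the replicate number as a block, 0 clock genes passed in each comparison, where 2.25%, 4.31% and 1.41% of all genes passed. In that fit Arntl was at -0.062 for sEVHYP against sEVCTRL and Nr1d2 at -0.0038 for sEVNORM against sEVCTRL. Same-numbered libraries deviated together in 2 of 7 pairs (r of -0.42 to 0.37) and libraries of unlike number in 6 of 14. The 2 sEVHYP libraries deviate from their own mean in equal and opposite ways, so these values cannot decide whether the numbers pair glands. Without both replicate 1 libraries the reversed values were Arntl -0.19, Per2 0.088, Tef 0.23, Nr1d1 0.15, Nr1d2 0.15 for sEVHYP against sEVCTRL, Npas2 0.10, Per1 -0.021, Per2 0.083, Per3 0.027 for sEVHYP against sEVNORM and Per2 0.0045, Dbp 0.23, Tef 0.023 for sEVNORM against sEVCTRL. With 1 library left out in turn, signs changed for Arntl (-0.19 to 0.16), Nr1d2 (-0.58 to 0.15), Per2 (-0.79 to 0.087), Tef (-0.50 to 0.23) and Nr1d1 (-0.84 to 0.15) in the first comparison, for Npas2 (-0.34 to 0.21), Per1 (-0.19 to 0.37), Tef (-0.35 to 0.36), Per3 (-0.64 to 0.24), Nr1d2 (-0.58 to 0.15), Per2 (-0.71 to 0.16) and Arntl (-0.35 to 0.0023) in the second and for Dbp (-0.37 to 0.23), Nr1d2 (-0.17 to 0.21), Per2 (-0.21 to 0.085), Tef (-0.34 to 0.021) and Nr1d1 (-0.15 to 0.34) in the third. Of 510 alternative fold changes of the clock genes, 441 kept direction and call, 55 changed sign and 14 passed where the test as reported did not.

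The mean clock index of sEVCTRL was 0.43 from Arntl, Dbp, Nr1d1 and Per3 alone, and 0.86 to 1.2 with 1 library left out, while that of sEVNORM ranged from 0.26 to 0.88 and that of sEVHYP from -0.05 to 0.93. The correlation of Arntl and Dbp ranged from -0.69 to -0.17. Counting error gave a CV of 2.29% to 8.39% for 9 of the 10 genes, below their CV of 10.9% to 39.5% between glands, and 20.7% for Ciart, where depth limits what can be read.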

Other observations

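Lists of genes that follow body temperature, glucocorticoid and acute handling were read beside the clock genes, because these signals also vary over the day. For sEVHYP against sEVNORM, 4 of 8 temperature genes were higher and 1 lower at an unadjusted P of 0.05 in edgeR (3.95% of all genes tested passed). In DESeq2, 2 of the 8 passed an adjusted P of 0.05 on the 2 groups and 0 on all 8 libraries. Cirbp, an RNA-binding protein induced by mild cold, was at 34.2, 34.5 and 30.1 CPM in sEVNORM and 21.8 and 19.1 CPM in sEVHYP (log2 fold change -0.69, SE 0.18, unadjusted P 0.00386 in edgeR). Rbm3, the other cold-inducible RNA-binding gene of the list, had the opposite sign, at 0.23 (SE 0.27), and did not pass. Against sEVCTRL, Rbm3 in sEVHYP was at 0.28 (SE 0.27) and Cirbp at -0.32 (SE 0.18). The heat shock genes Hspa1a (1.05), Hspa1b (0.73), Dnajb1 (0.66) and Hsph1 (0.49) were higher in sEVHYP, these values being log2 fold changes. Hspa1a no longer passed without replicate 1 of sEVNORM (0.89) or replicate 2 of sEVHYP (0.69), and Hspa1b no longer passed without the latter (0.59). Hsph1 no longer passed without replicate 1 of sEVCTRL (0.51), replicate 1 (0.35) or replicate 3 (0.45) of sEVNORM, or either sEVHYP library (0.43 and 0.55). For sEVNORM against sEVCTRL, Cirbp was higher (0.37, unadjusted P 0.0419) and Hsph1 lower (-0.52, unadjusted P 0.0274) in edgeR, and of these Cirbp kept its call only without sEVCTRL replicate 1 or sEVNORM replicate 3, and Hsph1 lost its call without sEVCTRL replicate 2 or sEVNORM replicates 1 or 3. None of the temperature genes passed for sEVHYP against sEVCTRL in edgeR or in DESeq2 on the 2 groups, and the smallest unadjusted edgeR P was 0.0693.

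Of 7 glucocorticoid target genes, 1 passed an adjusted P of 0.05 in DESeq2 for sEVHYP against sEVNORM, on the 2 groups and on all 8 libraries. The list had no common direction: in both sEVHYP comparisons 3 log2 fold changes were positive and 4 negative in edgeR. Sgk1 was at 0.47 against sEVCTRL and 0.48 against sEVNORM, and Cdkn1a at 0.37 and 0.38, without passing an unadjusted P of 0.05. An unadjusted P of 0.05 in edgeR was passed by 2.45% of all genes against sEVCTRL and 3.95% against sEVNORM. Fkbp5, a chaperone that glucocorticoids induce, was the 1 gene of the 7 that passed it in either sEVHYP comparison. It was at 54.3, 45.1 and 47.3 CPM in sEVCTRL, 73.8, 45.5 and 78.6 CPM in sEVNORM and 26.7 and 32.5 CPM in sEVHYP, lower than every other library in both sEVHYP libraries (log2 fold change -0.72, SE 0.24, unadjusted P 0.0154 against sEVCTRL, and -1.16, SE 0.24, unadjusted P 0.00112 against sEVNORM, in edgeR). Without replicate 1 of sEVHYP the difference of Fkbp5 from sEVCTRL was -0.59 and no longer passed. Among 8 immediate early genes, Egr1 was higher in sEVNORM than in sEVCTRL (0.97, unadjusted P 0.00540 in edgeR, where 1.62% of all genes passed). Nr4a1, of the same list, was higher in sEVHYP by 0.71 against sEVCTRL (unadjusted P 0.0489 in edgeR, 2.45% of all genes passing) and 1.02 against sEVNORM (unadjusted P 0.00959 in edgeR, 3.95% passing). Nr4a1 without replicate 2 of sEVHYP was at 0.35 and 0.67 in these 2 comparisons and passed in neither. Against sEVCTRL, Nr4a1 also lost its call without sEVCTRL replicate 1 (0.59) or 3 (0.56) and without sEVNORM replicate 1 or 3 (0.71 in both). With muscle marker level as a covariate, Nr4a1 (0.56 against sEVCTRL and 0.65 against sEVNORM), Hspa1a (0.90) and Cirbp in sEVNORM against sEVCTRL (0.32) no longer passed. Over the 8 libraries Pearson's r with the clock index was 0.45 for Hsph1, 0.35 for Hspa1a, 0.16 for Hspa1b, 0.08 for Fkbp5, -0.08 for Cirbp, -0.10 for Dnajb1, -0.11 for Nr4a1 and -0.66 for Egr1, as a description of libraries that share groups.

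As a description with no test, the genes most like the clock index over the 8 libraries, among 13718 searched, were Gtf2h1 (r = 0.92), Gm14440 (r = 0.88) and Slc11a2 (r = 0.87). Those most opposed were Rcn3 (r = -0.93), Irx3 (r = -0.92) and Dlg4 (r = -0.91). Spearman's rho was 0.81 for Gtf2h1, 0.69 for Gm14440 and 0.67 for Slc11a2. For Rcn3, Irx3 and Dlg4 it was -0.69, -0.95 and -0.79. The lowest level of Gm14440 was 0 CPM. Of the other clock genes, Hlf (r = 0.45) and Noct (r = 0.44) had the highest values and Fbxl21 (r = -0.49) and Nfil3 (r = -0.42) the lowest, Noct and Fbxl21 being named after their values were seen.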
